A study of Mus musculus with 12 samples.

Results

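Some microRNAs have no transcription unit of their own and lie in an intron of a protein-coding gene. The 10 mouse genes examined here, Mcm7, Smc4, Nfyc, Pank1, Pank3, Srebf2, Copz1, Ctdsp1, Ctdsp2 and Ctdspl, were taken from a list of such hosts and found in the count table by gene identifier. They are 10 of the 51467 named genes in the table, and 10 of the 14033 genes with enough reads to be tested. The question was whether the host mRNA differs when the hairpins are not cut out.

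The libraries came from mouse embryonic stem cells (ESCs) grown in serum with LIF and 2i, the MEK and GSK3 inhibitors PD0325901 and CHIR99021. Wild-type cells (the V6.5 line, per the methods of the study) were compared with Dgcr8 KO cells, and both received 500 uM 4-thiouridine (4sU), a base analogue that marks newly made RNA, for a pulse of 30 min. RNA of a sample was then divided. The part that had taken up 4sU was captured and sequenced as nascent RNA (4sU libraries), and rRNA-depleted RNA was sequenced as total RNA, with 3 replicates in each of the 4 groups. The Dgcr8 KO cells are a single line made earlier, so genotype and line cannot be told apart, and no label says whether replicates were separate cultures, so p-values measure the spread between these samples.

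DGCR8 is the RNA-binding partner of the nuclease DROSHA. Together they form the Microprocessor, which cuts the microRNA hairpin out of the primary transcript in the nucleus, often while the host is still being transcribed and before the intron is spliced. The hairpin is then trimmed to a mature microRNA, which recognises target mRNAs mainly through its seed, bases 2 to 8. Without DGCR8 the hairpin stays in the intron, and the mature microRNA is not made.

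The mature microRNAs of the hosts are shown because several hosts carry the same seed, so that relatives of a host carry relatives of its microRNA. Sequences are from RefSeq (GRCm38.p6), with the seed in capitals. For each hairpin the arm generally taken as the main product is given. Mcm7, a subunit of the MCM helicase that unwinds DNA at replication forks, holds 3 hairpins, and those of miR-93 and miR-106b share a seed that miR-25 lacks.
miR-106b-5p: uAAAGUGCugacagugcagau
miR-93-5p: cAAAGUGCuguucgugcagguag
miR-25-3p: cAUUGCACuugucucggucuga
Smc4, an ATPase subunit of condensin, which compacts chromosomes for mitosis, holds a pair with the same seed.
miR-15b-5p: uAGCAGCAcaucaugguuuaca
miR-16-5p: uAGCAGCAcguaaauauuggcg
Nfyc, a subunit of the CCAAT-binding transcription factor NF-Y, also holds a pair with a shared seed.
miR-30c-5p: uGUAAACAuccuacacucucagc
miR-30e-5p: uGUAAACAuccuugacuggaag
Pank1 and Pank3 encode pantothenate kinases, which catalyse the first step of coenzyme A synthesis, and their microRNAs share a seed.
miR-107-3p: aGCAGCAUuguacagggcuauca
miR-103-3p: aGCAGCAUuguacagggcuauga
Ctdsp1, Ctdsp2 and Ctdspl encode small phosphatases that act on the C-terminal domain of RNA polymerase II and work with the repressor REST. The same miR-26a is made from Ctdsp2 and Ctdspl, and miR-26b from Ctdsp1.
miR-26a-5p: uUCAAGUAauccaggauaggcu
miR-26b-5p: uUCAAGUAauucaggauaggu
Srebf2, the transcription factor SREBP2 that switches on sterol synthesis, holds miR-33, and Copz1, the zeta subunit of the COPI vesicle coat, holds miR-148b.
miR-33-5p: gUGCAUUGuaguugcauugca
miR-148b-3p: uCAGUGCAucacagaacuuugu

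The positions of the hairpins within the hosts differed widely (mm10, hairpins by the deposited table and introns by GENCODE M21). The 3 hairpins of Mcm7 lie within 1 intron of 748 bases, intron 13 of a transcript with 15 exons, in the order Mir106b (chr5:138165737-138165818), Mir93 (chr5:138165523-138165610) and Mir25 (chr5:138165321-138165404) along the direction of transcription, which is the minus strand. Gaps of 126 and 118 bases separate them, more than the 50 bases of a read. Mir15b (chr3:69009772-69009835, plus strand) and Mir16-2 (chr3:69009902-69009996, plus strand) lie 66 bases apart in intron 5 of Smc4, which is 6432 bases long. Mir30e (chr4:120772606-120772697, minus strand) and Mir30c-1 (chr4:120769534-120769622, minus strand) lie in intron 5 of Nfyc, of 4772 bases. Mir107 (chr19:34820687-34820773, minus strand) and Mir103-1 (chr11:35782396-35782481, plus strand) each lie in intron 5 of 7-exon transcripts of Pank1 and Pank3. Mir26b (chr1:74394310-74394394, plus strand) lies in an intron of only 564 bases, intron 4 of Ctdsp1, with 234 bases to the exon before it and 245 bases to the exon after it. Mir26a-2 (chr10:126995530-126995613, plus strand) and Mir26a-1 (chr9:119031796-119031885, plus strand) lie in intron 5 of Ctdsp2 and of Ctdspl. Mir33 (chr15:82198122-82198190, plus strand) lies in intron 16 of Srebf2, and Mir148b (chr15:103285125-103285221, plus strand) in the first intron of Copz1, which is 16159 bases long. At Ctdsp2 the label of an intronic hairpin needs a limit, since an exon of another annotated transcript reaches 1 base into Mir26a-2, and another annotated microRNA gene, Mir546, lies wholly on a Ctdsp2 exon and had 0 counts in the 12 libraries. At Mcm7 an M21 transcript with a retained intron covers Mir25 and Mir93 but not Mir106b.

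The libraries held 4593914 to 9295245 counts each. Counts are given below as CPM, the count set against the library size after TMM scaling. They are shares of a library without a usable spike-in, and in such bulk samples fewer cells that express a gene and less RNA per cell cannot be told apart. Dgcr8 itself fell from 101 ± 9.26 to 33.1 ± 1.08 CPM (SD, n = 3) in total RNA of the Dgcr8 KO libraries (log2 change -1.60, limma adjusted p = 6.68e-17), and 222 to 456 reads were still counted in each KO library. The 6 ESC marker genes examined all had enough reads to be tested and together held 3420.1 to 5449.6 CPM per library, whereas the 4 markers of feeder fibroblasts together held at most 3.75 CPM. No pair of replicates agreed within sampling noise.

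In total RNA, the steady-state measure, 4 of the 10 hosts were higher and 2 were lower in Dgcr8 KO cells than in wild-type cells (limma, Benjamini-Hochberg adjusted p under 0.05). Pank1, Pank3, Ctdsp1 and Ctdspl rose, Srebf2 and Copz1 fell, and Mcm7, Smc4, Nfyc and Ctdsp2 did not pass. Over all genes tested, 27.2% passed as higher and 36.7% as lower, and the host counts are to be read against these shares. None of the 10 hosts changed by more than 1 on the log2 scale, a size that 17.2% of all genes passed in either direction, although Ctdspl reached 1.09 without wild-type replicate 1. The median log2 change was -0.04 over the hosts and -0.09 over all genes.

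In nascent RNA, 9 of the 10 hosts passed. Pank1, Ctdsp1, Ctdsp2 and Ctdspl rose, and Mcm7, Smc4, Pank3, Srebf2 and Copz1 fell. Over all genes, 28.3% passed as higher and 28.0% as lower, and 14.8% passed with a log2 change over 1, which no host did. The median log2 change was -0.22 over the hosts and -0.02 over all genes.

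Stability was taken as the ratio of total to nascent RNA, and its change as the difference of the genotype effects in both (the interaction term of the fit). By this measure Mcm7, Smc4 and Pank3 rose, Ctdsp2 fell, and 6 hosts did not pass. Over all genes, 5.02% passed as higher, 11.1% as lower, and 1.76% with a log2 change over 1. The median log2 stability change was -0.08 over the hosts and -0.09 over all genes. The 19 host tests that passed in limma were also the 19 that passed in the quasi-likelihood test of edgeR, out of 30.

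**Figure D1:**
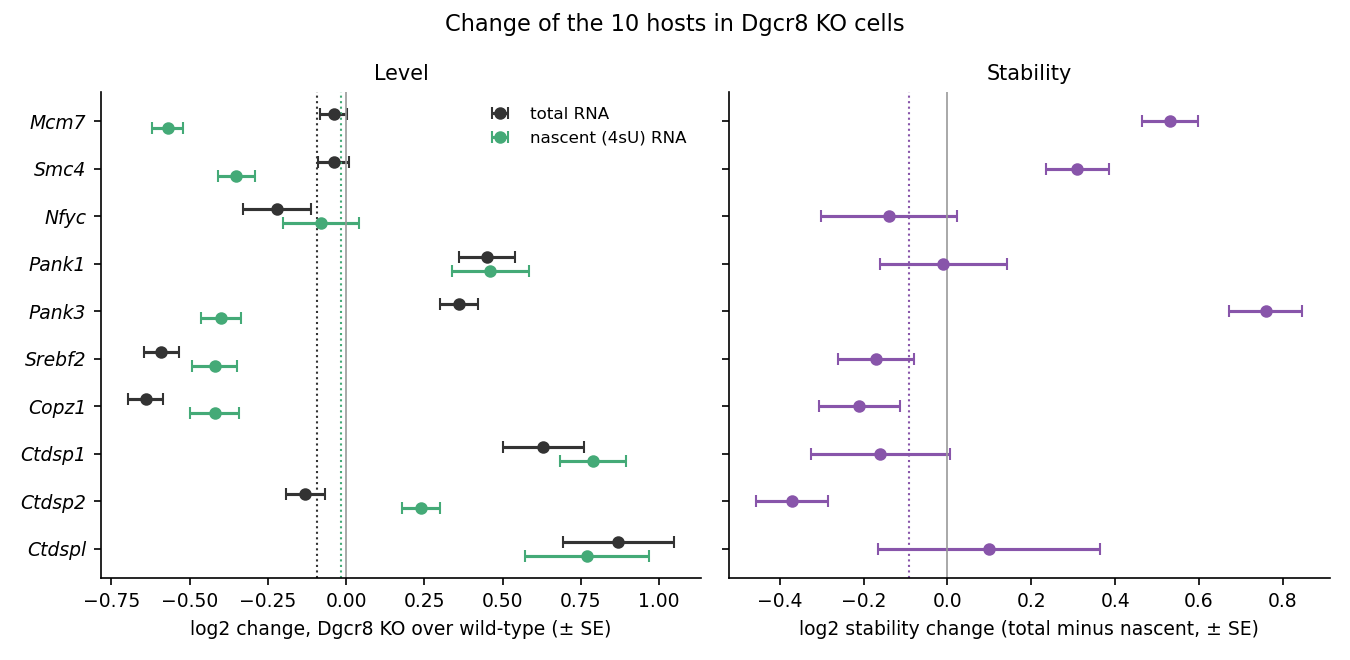
log2 change of each host in Dgcr8 KO over wild-type cells in total and nascent RNA (left) and of stability (right), with SE, from limma on 3 replicates a group; dotted lines mark the median of all genes. Mcm7, Smc4 and Pank3 lie apart in stability, at 0.53, 0.31 and 0.76, and Ctdsp2 at -0.37.

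Mcm7 was lower in nascent RNA of Dgcr8 KO cells, while its total RNA hardly differed. Its total RNA was 528, 524 and 533 CPM in the wild-type replicates and 505, 521 and 519 CPM in Dgcr8 KO. Its nascent RNA was 443, 476 and 446 CPM in wild-type and 314, 316 and 289 CPM in Dgcr8 KO. The KO libraries were thus clearly lower in nascent RNA and only narrowly so in total RNA. The log2 change was -0.57 in nascent RNA (SE 0.0502, limma adjusted p = 3.34e-11) and -0.04 in total RNA (SE 0.0441, limma adjusted p = 0.47; 95% interval -0.12 to 0.05). The log2 stability change was 0.53 (SE 0.0668, limma adjusted p = 7.80e-07).

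The other subunits of the helicase, Mcm2 to Mcm6, fell in both kinds of RNA, 5 of 5 in each, where 36.7% of all genes fell in total and 28.0% in nascent RNA. Their log2 changes in total RNA lay between -1.18 for Mcm5 and -0.53 for Mcm3, and those in nascent RNA between -1.26 and -0.76. Of the 5, Mcm3 alone passed for stability, at 0.36 (limma adjusted p = 0.000172), while the others lay between -0.12 and 0.08. Set against the mean of the other 5 subunits in the same library, Mcm7 total RNA stood at 0.673, 0.669 and 0.663 in wild-type and at 1.17, 1.24 and 1.24 in Dgcr8 KO, a 1.82-fold higher ratio. In nascent RNA the ratio was 1.29-fold higher in Dgcr8 KO. The groups did not overlap in either case (exact permutation test, two-sided p = 0.1, the smallest that 3 against 3 allows). Mcm7 was thus higher relative to the subunits it assembles with in both kinds of RNA.

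Smc4 showed the same arrangement on a smaller scale. Its total RNA was 489, 523 and 470.4 CPM in wild-type and 489, 473 and 477 CPM in Dgcr8 KO, and the groups overlapped. Its nascent RNA was 306, 319 and 305 CPM in wild-type and 232, 232 and 264 CPM in Dgcr8 KO, with every KO library lower. Smc4 changed by -0.35 on the log2 scale in nascent RNA (SE 0.0579, limma adjusted p = 4.59e-06), -0.04 in total RNA (SE 0.0484, limma adjusted p = 0.469) and 0.31 for stability (SE 0.0755, limma adjusted p = 0.00348).

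Of the 7 other condensin genes, 5 fell in total RNA and 6 in nascent RNA, 71.4% and 85.7% beside 36.7% and 28.0% of all genes, and none rose. Smc2, the partner ATPase of Smc4, fell by 0.33 on the log2 scale in total and by 0.47 in nascent RNA. Ncapg, a HEAT-repeat subunit of condensin I, fell furthest, by 0.72 and 0.91. Ncapg2, its counterpart in condensin II, had values close to those of Smc4, with log2 changes of -0.04 in total RNA, which did not pass, -0.39 in nascent RNA and 0.35 for stability (limma adjusted p = 0.0165). Ncaph, at 0.06 in total and -0.03 in nascent RNA, did not pass in either. The ratio of Smc4 to Smc2 in total RNA was 1.15 ± 0.0105 in wild-type and 1.41 ± 0.0226 in Dgcr8 KO (SD, n = 3; exact permutation test, two-sided p = 0.1, the smallest possible). In nascent RNA this ratio differed less, at 1.43 ± 0.0709 in wild-type and 1.55 ± 0.0572 in Dgcr8 KO, 1.08-fold. Smc4 was not set against the other condensin genes in this way.

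**Figure D2:**
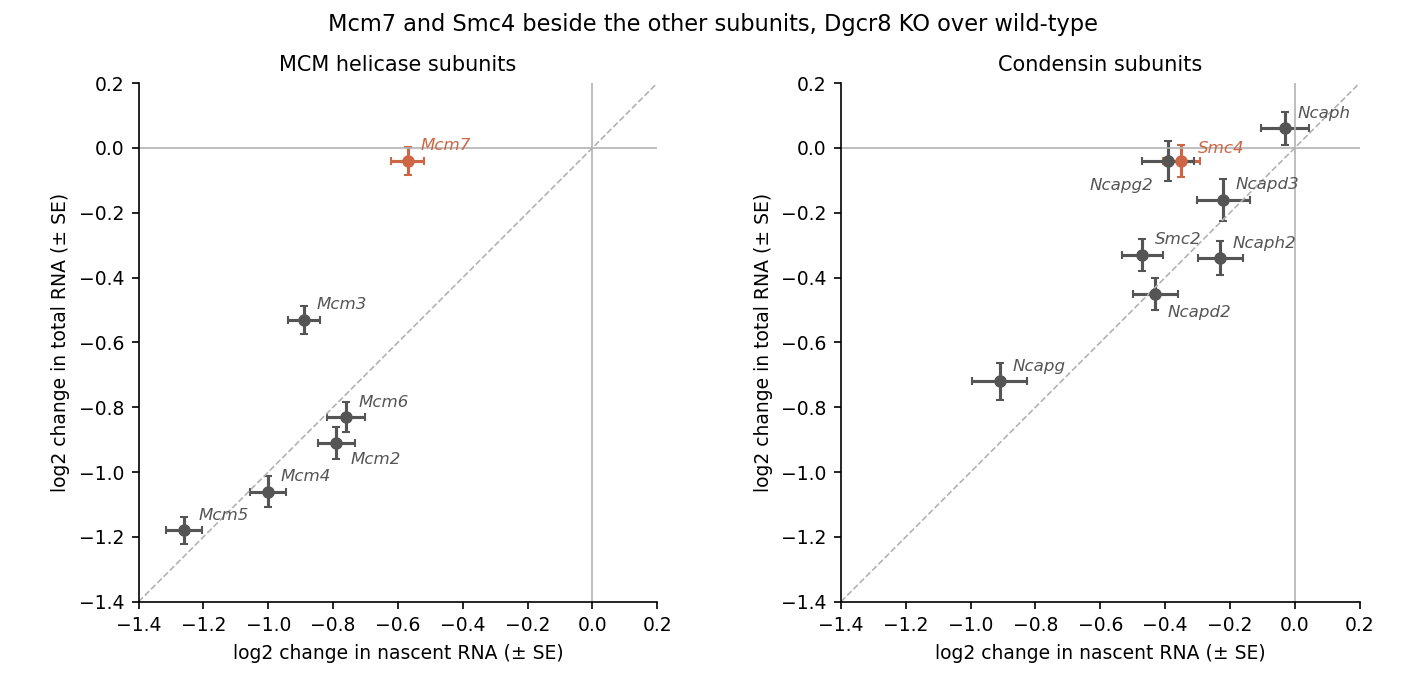
log2 change in total RNA against that in nascent RNA, with SE, for the MCM helicase genes (left) and the condensin genes (right); on the dashed diagonal both changes are equal. Mcm7 lies at -0.57 in nascent and -0.04 in total RNA, while Mcm2 to Mcm6 are all at -0.53 or lower on both axes; Smc4 and Ncapg2 lie together at about -0.04 in total RNA.

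Pank3 passed in both kinds of RNA, in opposite directions. Its total RNA rose from 181, 184 and 174 CPM to 236, 214 and 242 CPM. Its nascent RNA fell from 292, 256 and 252 CPM to 189, 207 and 211 CPM. Wild-type and KO libraries did not overlap in either. On the log2 scale the change was 0.36 in total RNA (SE 0.06, limma adjusted p = 4.23e-06) and -0.40 in nascent RNA (SE 0.0631, limma adjusted p = 2.68e-06), and stability rose by 0.76 (SE 0.0871, limma adjusted p = 1.42e-07).

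Pank1, the relative of Pank3 with a microRNA of the same seed, rose in both. Its total RNA was 51.7, 48.2 and 52.5 CPM in wild-type and 70.5, 63.5 and 74.2 CPM in Dgcr8 KO. Its nascent RNA was 35.5, 27.1 and 30.1 CPM in wild-type and 33.8, 45.5 and 50.0 CPM in Dgcr8 KO, where the first KO replicate lay within the wild-type range. On the log2 scale Pank1 changed by 0.45 in total RNA (SE 0.0895, limma adjusted p = 5.72e-05), 0.46 in nascent RNA (SE 0.123, limma adjusted p = 0.00198) and -0.01 for stability (SE 0.152, 95% interval -0.31 to 0.29).

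The other genes of coenzyme A synthesis did not rise. Of the 5 examined, 3 fell in total RNA (Pank4, Ppcs and Coasy), 60.0% beside 36.7% of all genes, 2 fell in nascent RNA (Ppcs and Coasy), 40.0% beside 28.0%, and none passed for stability. Coasy, which catalyses the last steps of the pathway, fell by 0.42 on the log2 scale in total RNA. Pank2, another kinase gene that also holds a hairpin of the miR-103 family in an intron (Mir103-2), had a log2 change of -0.15 in total RNA (limma adjusted p = 0.0651) and -0.10 in nascent RNA (limma adjusted p = 0.446). Differences between the 3 kinase genes with related hairpins were not tested.

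The 3′ UTRs of Pank1 and Pank3 (5388 and 5827 bases, GENCODE M21, longest per gene, against a median of 961 bases over 21021 genes) held AGCACTT or GCACTTA, read on the mRNA strand, and those of the other hosts did not. Both motifs contain GCACTT, as does the GCACTTT of Mcm7 below, which pairs with the AAGUGC seed of the microRNA family most abundant in ESCs, and 17.7% of all 3′ UTRs held one or the other. A match to the seed of a host's own microRNA was present once in Mcm7 (GCACTTT, for miR-93 and miR-106b, in a 3′ UTR of only 136 bases; 11.8% of all 3′ UTRs), once in Copz1 (TGCACTG, for miR-148b; 12.7%) and once in Ctdsp2 (TACTTGA, for miR-26a; 9.7%). The other hosts had none. The M21 3′ UTRs of Pank1 and Copz1 are longer than all exons counted for these genes in the deposited table (3692 and 1669 bases), so part of the sequence searched was not counted. These matches are letters in a sequence, and their part in the changes was not tested.

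The phosphatase genes differed among themselves. Ctdsp1 total RNA rose from 14.9, 13.3 and 17.5 CPM to 22.2, 28.3 and 20.7 CPM. Its nascent RNA rose from 32.0, 36.4 and 35.6 CPM to 60.9, 64.9 and 53.8 CPM. The groups were separate in both, with log2 changes of 0.63 in total RNA (SE 0.129, limma adjusted p = 8.18e-05) and 0.79 in nascent RNA (SE 0.105, limma adjusted p = 1.35e-07). Stability did not pass (log2 -0.16, SE 0.166, limma adjusted p = 0.577).

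Ctdspl also rose in both, at much lower counts of 36 to 130 per library. Its total RNA was 11.2, 6.67 and 5.90 CPM in wild-type and 14.6, 11.7 and 14.2 CPM in Dgcr8 KO. Its nascent RNA was 8.80, 7.49 and 11.1 CPM in wild-type and 18.1, 13.5 and 15.7 CPM in Dgcr8 KO. The first wild-type replicate came close to the KO range in total RNA without reaching it. Log2 changes were 0.87 in total RNA (SE 0.178, limma adjusted p = 8.18e-05) and 0.77 in nascent RNA (SE 0.197, limma adjusted p = 0.00124). The stability change of 0.10 had an SE of 0.265, so that a change of the size seen in Mcm7 was not excluded at this depth (95% interval -0.42 to 0.62).

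Ctdsp2 behaved differently. Its nascent RNA rose from 129, 131 and 135 CPM to 158, 152 and 155 CPM. Its total RNA did not follow, at 91.3, 90.9 and 99.4 CPM in wild-type and 84.3, 89.6 and 83.0 CPM in Dgcr8 KO. The KO libraries were all higher in nascent RNA and all slightly lower in total RNA. The log2 change was 0.24 in nascent RNA (SE 0.0602, limma adjusted p = 0.00131), -0.13 in total RNA (SE 0.0616, limma adjusted p = 0.0579) and -0.37 for stability (SE 0.0861, limma adjusted p = 0.00262), which was the opposite sign to Mcm7, Smc4 and Pank3. Without wild-type replicate 2 the change in total RNA passed (log2 -0.17, limma adjusted p = 0.0338).

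Among related genes, Ctdspl2 fell by 0.18 on the log2 scale in total and by 0.32 in nascent RNA, and Ctdnep1, a phosphatase of the nuclear envelope, was at 0.03 and 0.00 and did not pass. Rest, whose protein silences neuronal genes, rose by 0.21 in total RNA (limma adjusted p = 1.93e-05) and 0.39 in nascent RNA (limma adjusted p = 7.11e-09). Rest also holds an annotated hairpin off its exons, Mir5098. Neither of the 2 related phosphatase genes rose.

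Srebf2 and Copz1 fell in both kinds of RNA. Srebf2 total RNA fell from 269, 246 and 286 CPM to 176, 181 and 174 CPM. Its nascent RNA fell from 137, 132 and 134 CPM to 108, 102 and 91.9 CPM. The groups were well separated, with log2 changes of -0.59 in total RNA (SE 0.0569, limma adjusted p = 1.14e-10) and -0.42 in nascent RNA (SE 0.0715, limma adjusted p = 8.38e-06). The stability change of -0.17 (SE 0.0914) did not pass (limma adjusted p = 0.228).

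Most genes of sterol metabolism examined beside Srebf2 were lower as well. Of 11 examined, 8 fell in total RNA and 9 in nascent RNA, 72.7% and 81.8% beside 36.7% and 28.0% of all genes, and none rose. Insig1, which holds the SREBP precursors in the endoplasmic reticulum and is itself a target of SREBPs, fell by 1.40 on the log2 scale in total RNA. Srebf1, the paralog of Srebf2, fell by 0.59, and Scap, the escort protein of both, was at 0.08 and did not pass. Srebf1 itself holds annotated hairpins off its exons, Mir6921 and Mir6922.

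Copz1 total RNA fell from 158, 159 and 155 CPM to 102, 106 and 95.5 CPM (log2 -0.64, SE 0.0566, limma adjusted p = 1.88e-11). Its nascent RNA fell from 66.2, 70.3 and 65.1 CPM to 50.7, 50.9 and 48.3 CPM (log2 -0.42, SE 0.0792, limma adjusted p = 3.30e-05). No KO library reached the wild-type range in either. The stability change of -0.21 (SE 0.0973) did not pass (limma adjusted p = 0.147), although the ratios of the replicates did not overlap.

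The rest of the coatomer, the coat of vesicles that return from the Golgi apparatus to the endoplasmic reticulum, moved less. Of 8 other genes, 5 fell in total RNA by 0.14 to 0.34 on the log2 scale, 62.5% beside 36.7% of all genes, and Copg1 and Copg2 did not pass. Copz2, which encodes the alternative zeta subunit and holds Mir152 in an intron, went the other way, from 9.36 ± 1.64 to 26.2 ± 2.98 CPM in total RNA (SD, n = 3; log2 1.51, limma adjusted p = 2.80e-11) and by 0.87 on the log2 scale in nascent RNA (limma adjusted p = 0.000728). The paralogs of the zeta subunit, both hosts of a microRNA, therefore changed in opposite directions.

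Nfyc was the host with no call. Its total RNA was 22.5, 28.8 and 27.7 CPM in wild-type and 22.9, 21.9 and 23.4 CPM in Dgcr8 KO. Its nascent RNA was 33.4, 30.4 and 25.1 CPM in wild-type and 26.5, 26.6 and 30.9 CPM in Dgcr8 KO. The groups overlapped in both, and the first wild-type replicate was low in total and high in nascent RNA. The log2 change was -0.22 in total RNA (SE 0.109, limma adjusted p = 0.0802), -0.08 in nascent RNA (SE 0.12, limma adjusted p = 0.585) and -0.14 for stability (95% interval -0.46 to 0.18). Without that replicate the change in total RNA was -0.32 and passed (limma adjusted p = 0.0124). The other 2 subunits of NF-Y both changed: Nfya rose by 0.46 in total RNA on the log2 scale, from 47.9 ± 3.31 to 66.0 ± 4.63 CPM, and Nfyb fell by 1.04, from 126 ± 2.54 to 61.3 ± 0.417 CPM (SD, n = 3).

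**Figure D3:**
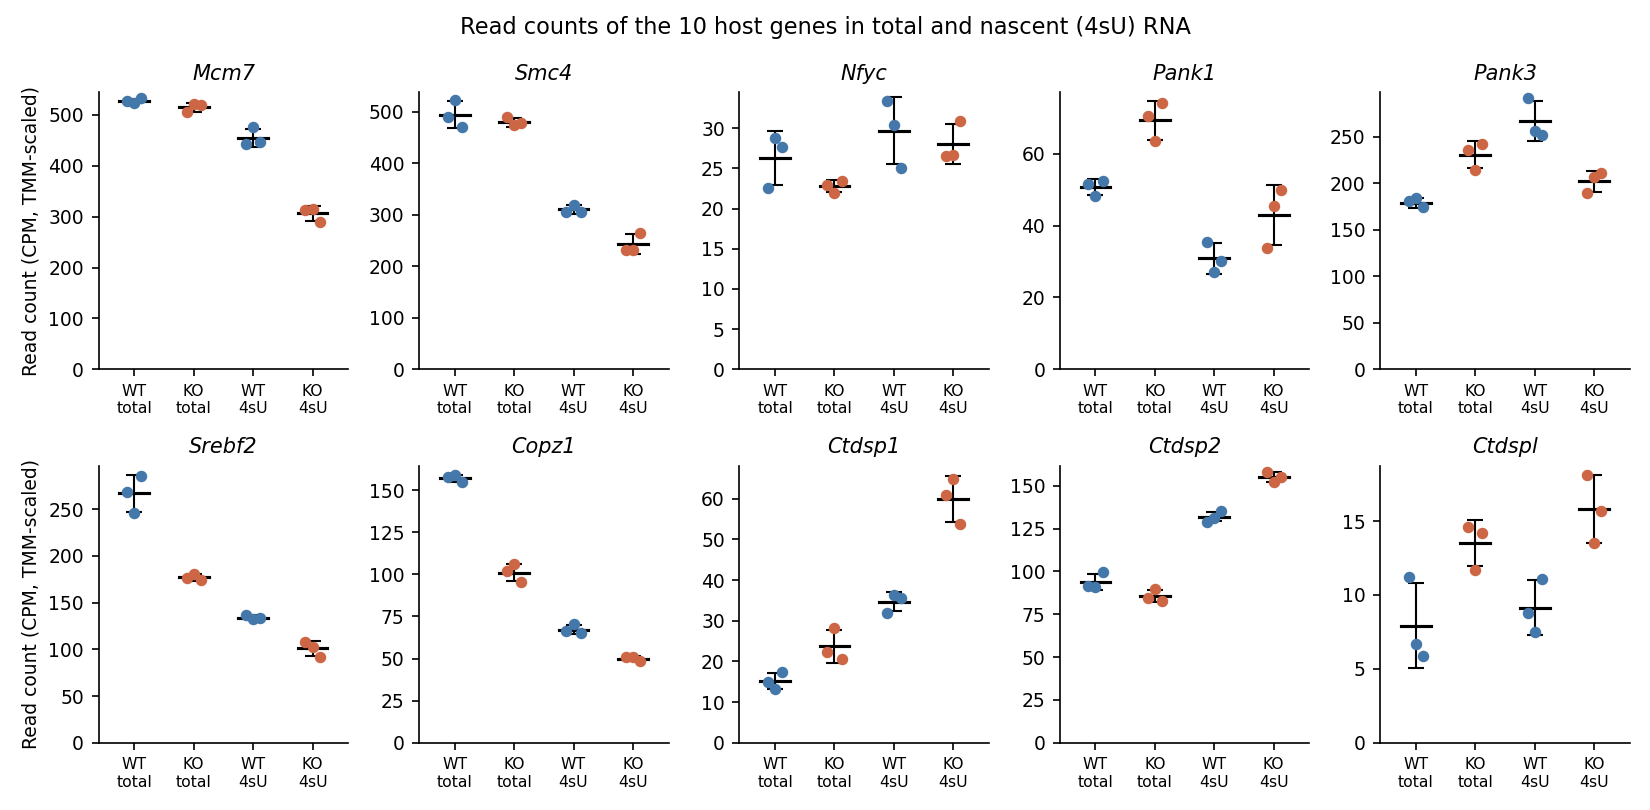
Read counts of each host in CPM (TMM-scaled) in the 3 replicates of wild-type total, Dgcr8 KO total, wild-type 4sU and Dgcr8 KO 4sU libraries; bars mark the mean and SD, and each vertical axis starts at 0. Pank3 rises from 179 to 230.5 in total RNA and falls from 267 to 202 in 4sU RNA, whereas Srebf2 and Copz1 fall in both.

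Over all partner genes of the hosts, 41 in 7 lists, 28 fell and 3 rose in total RNA, and likewise 28 fell and 3 rose in nascent RNA. That is 68.3% lower and 7.32% higher in each, beside 36.7% and 27.2% of all genes in total RNA and 28.0% and 28.3% in nascent RNA. For stability, 3 rose and 6 fell, 7.32% and 14.6% beside 5.02% and 11.1% of all genes. This count of 9 was 4 in DESeq2 and 4 without DGCR8KO replicate 1.

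The hosts spanned a wide range of relative stability before any change. In wild-type cells the log2 ratio of total to nascent RNA, less that of the median gene, ran from -1.26 for Ctdsp1 to a mean of 1.13 over the replicates for Copz1 (1.17, 1.06 and 1.16), which placed them at percentiles 22.4 and 84.5 of all genes tested. In ascending order the others were Pank3 at -0.66, Ctdsp2 at -0.57, Ctdspl at -0.39, Nfyc at -0.24, Mcm7 at 0.13, Smc4 at 0.59, Pank1 at 0.62 and Srebf2 at 0.90. Replicates of neighbours in this order overlapped from Pank3 up to Mcm7, and again between Smc4 and Pank1, so the order there is not resolved. Those of Ctdsp1, Srebf2 and Copz1 did not overlap with their neighbours. Mcm7 stood at -0.15 when only genes with 3 CPM in all 12 libraries set the median. In Dgcr8 KO, Pank3 stood at 0.19 (percentile 55.5, from 33.0), Mcm7 at 0.75 (percentile 73.1, from 53.7) and Smc4 at 0.99 (percentile 80.3, from 68.4), and Ctdsp2 at -0.85 (percentile 29.6, from 34.9).

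**Figure D4:**
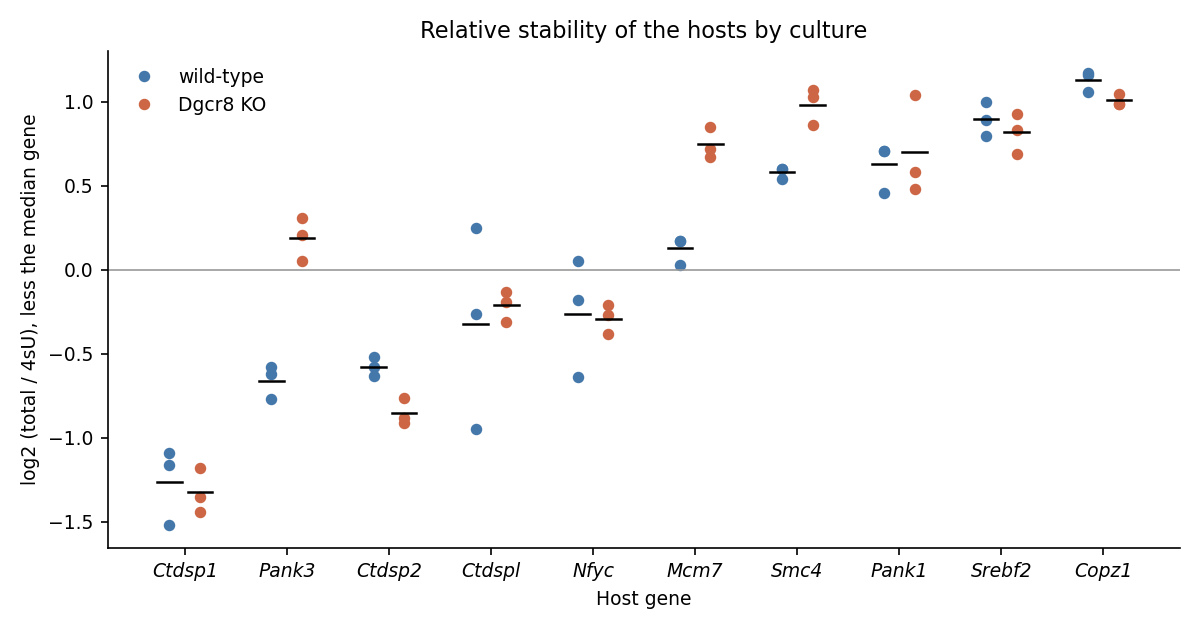
log2 ratio of total to 4sU RNA less that of the median gene, for each host in each wild-type and Dgcr8 KO replicate (points) with the group mean (line), hosts in ascending order in wild-type cells. The KO points lie above the wild-type points for Pank3, Mcm7 and Smc4 and below them for Ctdsp2, and the wild-type points of Ctdspl spread from -0.95 to 0.25.

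Per kilobase of exon, the most abundant host in wild-type total RNA was Mcm7 at 178 ± 1.43 CPM per kb, followed by Smc4 at 114 ± 6.13, Copz1 at 94.1 ± 1.27, Srebf2 at 53.6 ± 4.03 and Pank3 at 24.3 ± 0.722 (SD, n = 3). Ctdsp2 stood at 18.5 ± 0.949, Pank1 at 13.8 ± 0.625, Nfyc at 11.4 ± 1.44, Ctdsp1 at 5.30 ± 0.721 and Ctdspl at 1.73 ± 0.622 CPM per kb. Depth therefore differed between hosts, and the widest intervals above belong to the least abundant ones.

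The table also counts reads on the hairpin genes themselves. Such a read had to touch the annotated hairpin by at least 1 base and could extend into the intron around it, so these counts do not measure mature microRNA. They were far higher in 4sU RNA. In wild-type cells the log2 ratio of total to 4sU RNA was -3.18 for Mir25 (SE 0.263) and -4.68 for Mir15b (SE 0.593). The value for Mir15b rests on only 3, 10 and 0 counts in the wild-type total libraries. Of the 15 hairpin genes in the hosts, 5 had enough reads to be tested, those of Mcm7 and Smc4.

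The 3 hairpins of the Mcm7 intron had unequal reads in wild-type cells and moved in different directions. In wild-type 4sU libraries Mir25 had 104, 99 and 97 counts, Mir93 had 23, 23 and 28, and Mir106b had 16, 18 and 17. In Dgcr8 KO Mir25 had 71, 68 and 58, Mir93 had 48, 43 and 36, and Mir106b had 48, 53 and 40. Mir106b and Mir93 were thus higher in every KO library and Mir25 was lower. The log2 change in nascent RNA was 1.55 for Mir106b (SE 0.266, limma adjusted p = 1.05e-05), 0.87 for Mir93 (SE 0.248, limma adjusted p = 0.00356) and -0.50 for Mir25 (SE 0.155, limma adjusted p = 0.00634), while the host exons changed by -0.57. The change of Mir25 did not pass in limma-trend (adjusted p = 0.0624) or without DGCR8KO replicate 3 (adjusted p = 0.0636). Mir106b would not have met the read filter on its wild-type libraries alone.

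Relative to the exonic reads of Mcm7 in the same 4sU library, Mir25 did not differ detectably, at 39.8 ± 3.06 per 1000 host reads in wild-type and 41.2 ± 3.49 in Dgcr8 KO (SD, n = 3; exact permutation test, two-sided p = 0.6). Mir93 rose from 9.83 ± 1.42 to 26.6 ± 3.46 and Mir106b from 6.80 ± 1.05 to 29.5 ± 2.93 per 1000 host reads, ratios of 2.71 and 4.33, with no overlap between groups (exact permutation test, two-sided p = 0.1 for each, the smallest possible). The ratio of Mir106b to Mir25 reads, which does not depend on any scaling, was 0.154, 0.182 and 0.175 in wild-type and 0.676, 0.779 and 0.690 in Dgcr8 KO. The reads of this one intron were therefore spread over its hairpins more evenly in Dgcr8 KO cells. All 3 hairpins together had 64 wild-type and 75 KO counts in total RNA, where Mir93 passed in limma (log2 1.40, adjusted p = 0.0233) and not in edgeR (adjusted p = 0.0516).

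The Smc4 hairpins went the other way. In 4sU libraries Mir15b had 43, 44 and 53 counts in wild-type and 16, 13 and 20 in Dgcr8 KO. Mir16-2 had 20, 15 and 29 counts in wild-type and 12, 8 and 9 in Dgcr8 KO. Both were lower in every KO library. The log2 change in nascent RNA was -1.39 for Mir15b (SE 0.322, limma adjusted p = 0.000463) and -0.99 for Mir16-2 (SE 0.363, limma adjusted p = 0.021), beside -0.35 for the exons of Smc4. The change of Mir16-2 did not pass with no filter (limma adjusted p = 0.057) or without DGCR8KO replicate 2 (0.0761) or 3 (0.0726). Mir16-2 met the read filter through the wild-type 4sU libraries alone, so the size and p-value of its fall are uncertain. Mir15b would not have met the filter on its KO libraries alone. Per 1000 host reads Mir15b fell from 27.3 ± 4.31 to 12.9 ± 1.98 (SD, n = 3; exact permutation test, two-sided p = 0.1), and Mir16-2 was at 12.4 ± 3.89 and 7.76 ± 2.19 with overlapping groups (exact permutation test, two-sided p = 0.2). For stability, Mir15b passed in limma (log2 2.29, adjusted p = 0.0481) and not in edgeR (adjusted p = 0.212), on 13 total RNA counts in each genotype.

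Mir26b, in the short intron of Ctdsp1, just missed the filter. It had 6, 9 and 4 counts in wild-type and 18, 14 and 15 in Dgcr8 KO 4sU libraries, and 0 counts in the 3 wild-type total libraries against 2, 1 and 4 in Dgcr8 KO. With no filter its log2 change in nascent RNA was 1.43 (limma adjusted p = 0.00925), and the host exons rose as well. Per 1000 host reads it was at 33.8 ± 16.1 in wild-type and 50.9 ± 9.10 in Dgcr8 KO, with overlapping groups (SD, n = 3; exact permutation test, two-sided p = 0.2). Both hairpins of Nfyc had 1 to 11 counts in each 4sU library, and the hairpins of the other hosts had 0 to 7, all under the filter. Mir26a-1 of Ctdspl had 0 counts in the wild-type 4sU libraries and 3, 0 and 3 in Dgcr8 KO, and passed in the fit with no filter (limma adjusted p = 0.0159) on these 6 counts. Intervals and tests on such counts cover counting error and the spread between replicates only, and reads were not collapsed by molecular identifiers.

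**Figure D5:**
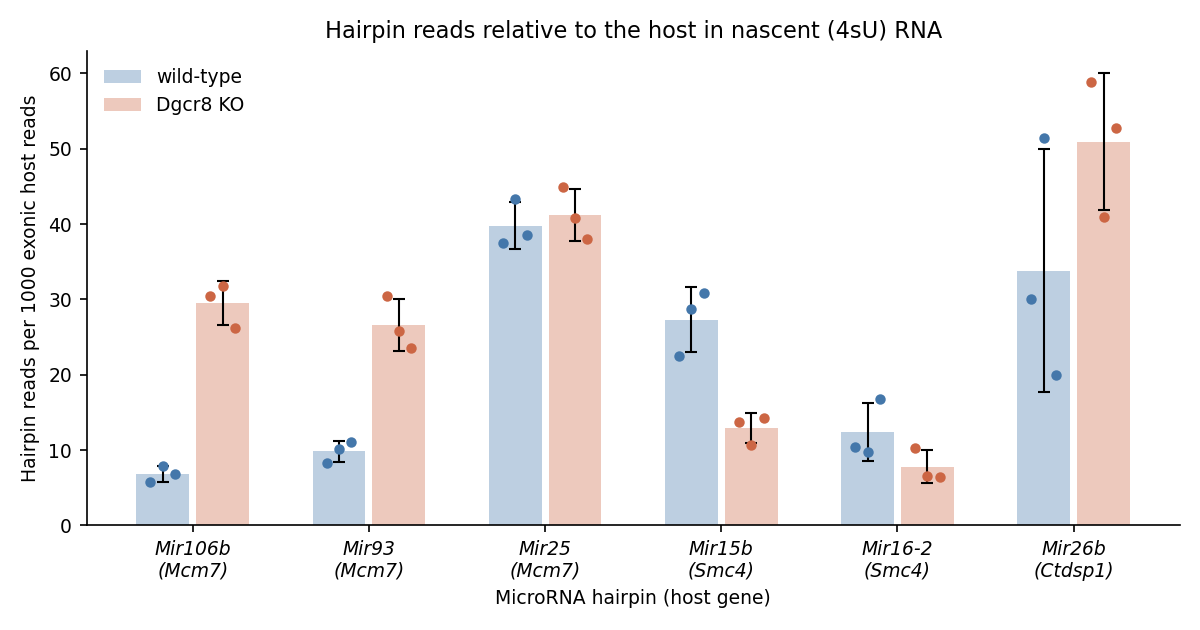
Reads on 6 microRNA hairpin genes per 1000 exonic reads of the host in the same 4sU library, for 3 wild-type and 3 Dgcr8 KO replicates (points), with the mean (bar) and SD. Mir106b and Mir93 rise from 6.80 to 29.5 and from 9.83 to 26.6, Mir25 stays near 40 (39.8 and 41.2), and Mir15b falls from 27.3 to 12.9.

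The 10 hosts were set beside every other protein-coding gene in the table with a microRNA gene on its strand and off its exons. There were 604 of these, of which 461 had enough reads. The partner genes Pank2, Srebf1, Copz2 and Rest are among them. In total RNA 36.4% of the 461 passed as higher and 37.5% as lower, beside 27.2% and 36.7% of all genes. In nascent RNA the shares were 31.0% and 25.6%, beside 28.3% and 28.0%. For stability they were 7.16% and 10.6% (82 genes, and 51 with no filter on low counts), beside 5.02% and 11.1%. The median log2 changes were -0.03, 0.04 and -0.08 beside -0.09, -0.02 and -0.09 over all genes. The 66 tested genes whose microRNA has a name number under 1000, which tend to be the better established ones, had median log2 changes of 0.25 in total RNA, 0.24 in nascent RNA and -0.03 for stability. In this narrower list 33 rose and 21 fell in total RNA, 50.0% and 31.8% beside 27.2% and 36.7% of all genes. In nascent RNA 33 rose and 19 fell, 50.0% and 28.8% beside 28.3% and 28.0% of all genes.

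The furthest single genes of the wider list changed far more than the 10 hosts, but they are the extremes of 461 tested genes. In total RNA the furthest rises were Arsb, a lysosomal sulfatase, Anxa2, a membrane-binding annexin, and Clps, the colipase, with log2 changes of 4.09, 4.04 and 3.11, and the furthest falls Usp29, Slit2 and Hydin, at -3.90, -3.13 and -2.92. Slit2, a secreted guidance cue that holds Mir218-1, was also among the furthest falls in nascent RNA at -2.44, with Usp29 and Hydin, and there Anxa2, Hoxd4 and Arsb rose furthest, at 3.87, 3.23 and 3.17. Wild-type total libraries held only 1, 3 and 6 counts of Arsb and 2, 7 and 5 of Clps. Hoxd4 had 3, 5 and 2 counts in wild-type 4sU libraries, and Usp29 had 8, 5 and 3 in KO total libraries. Hydin had 21, 8 and 20 counts in KO total and 7, 11 and 7 in KO 4sU libraries. These genes met the read filter through the other genotype alone, so the size of their changes is uncertain. For stability, Tmem123 and Ankrd52 rose by 1.53 and 1.28 on the log2 scale. Slit3, which holds Mir218-2, and Ctnnbip1 were the only falls over 1 that passed, at -1.43 and -1.19. That of Slit3 (limma adjusted p = 0.045) rested on 5, 6 and 3 counts in the KO total libraries. Slit3 also met the read filter through the wild-type libraries alone. Scamp4 also passed for stability, but its wild-type total libraries held 0, 1 and 1 counts, so its fold is not given. Among 747 hairpin genes of the wider hosts, 22 had enough reads. In total RNA 3 of the 22 rose and 4 fell, where 27.2% of all genes rose and 36.7% fell. In nascent RNA 4 rose and 7 fell, where 28.3% of all genes rose and 28.0% fell. These counts were not tested against the shares over all genes. The wider hosts and their tested hairpins thus each held both rises and falls. Among hosts with a name number under 1000, more rose than fell in both kinds of RNA.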

How the data were processed

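The authors deposited raw counts, which are whole reads per gene. Adapters had been removed with Cutadapt 1.14 and single-end reads placed on mm10 by STAR 2.5.3a, only where they had 1 position. Exonic reads were counted, per the file header, with featureCounts 1.5.3 in reverse-stranded mode against GENCODE M14 without rRNA genes. Intronic reads were therefore not counted unless they touched an annotated hairpin or another annotated exon, such as that of another transcript. Reads shared by overlapping genes or near-identical copies were lost. The source name of the KO samples reads DDX8KO, whereas title and genotype give DGCR8 KO, and the latter was used.

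Gene identifiers were matched to GENCODE M21 (51274 of 51467). All 15 hairpin genes matched RefSeq. The 92 ERCC rows held 1 count in all. Genes with 3 CPM in at least 3 libraries were kept. The filter, and a limma model of all 12 libraries with stability as the interaction, followed the study. TMM scaling (edgeR 4.0.16) and voom weights (limma 3.58.1, R 4.3.3) were chosen here. edgeR quasi-likelihood and DESeq2 1.42.0 were alternatives. Relative stability per replicate used log2 of CPM with 0.5 added. Each 95% interval was taken from the SE with the normal distribution. A 3 against 3 exact test cannot go below p = 0.1. The fits were tested on simulated data.

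Members and gene lists were chosen with earlier results of these data known. Named genes were Dgcr8, the hosts, their hairpins, the listed partners, and from the wider list the 3 furthest rises and falls per contrast among genes past a log2 change of 1. Same-numbered wild-type and KO libraries did not deviate together (correlations from -0.1027 to 0.09049), so the fit without a block was kept. Same-numbered 4sU and total libraries of a genotype deviated together weakly (correlations from 0.02027 to 0.1336). A block for the libraries of each RNA sample was therefore run as an alternative, and it kept all 19 host calls. Some of the listed partner genes are not reported here by name.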

Additional observations from a re-analysis of the deposited data

Results flagged for a closer look

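For 4 hosts the genotype effect in total RNA differed from that in nascent RNA by the interaction term of the fit. The difference, total minus nascent on the log2 scale, was 0.53 for Mcm7, 0.31 for Smc4, 0.76 for Pank3 and -0.37 for Ctdsp2. It held for all 4 under each alternative of fit, scaling, filter and left-out replicate. Between scalings the median gene's stability change lay between -0.092 and -0.003. Beside these results, the 4 feeder fibroblast markers together held 0.561 to 3.75 CPM per library, and their part was not tested.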

How the results depend on the processing

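All 19 host calls were kept under every alternative test, scaling, filter and block and without each replicate. Asking for a log2 change over 1 left 0 hosts in total RNA, 0 in nascent RNA and 0 for stability, although Ctdspl was at 1.09 in total RNA without wild-type replicate 1. With that limit the wider list kept 79, 65 and 6 of its 461 tested genes and the partners 6, 5 and 0 of 41. Over all genes, 17.2%, 14.8% and 1.76% passed that limit. Restricting the wider list to name numbers under 1000 left 54, 52 and 11 of 66 tested genes at any size of change. Of all genes, 27.2% rose and 36.7% fell in total RNA, 28.3% and 28.0% in nascent RNA. For stability these shares were 5.02% and 11.1%. With no filter on low counts 51 genes of the wider list passed for stability, against 82. DESeq2 passed 4 partner genes for stability, against 9.

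Leaving out 1 replicate gave 6 to 7 hosts in total RNA, 9 in nascent RNA and 4 for stability, 28 to 32, 28 to 30 and 4 to 8 partners, and 320 to 333, 232 to 260 and 56 to 69 genes of the wider list. The 4 partners for stability came without DGCR8KO replicate 1. The fold of the summed hairpin reads in nascent RNA lay at 1.10 to 1.25 for Mcm7, 0.374 to 0.450 for Smc4 and 2.14 to 3.63 for Ctdsp1.

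Values that did not pass changed sign at times. Scaling by library size alone gave 0.02 for Mcm7 and 0.01 for Smc4 in total RNA. The stability change of Pank1 was 0.07 in DESeq2, 0.08 with RLE, 0.05 with upper-quartile and 0.02 with library-size scaling, and 0.0031 with no filter, and -0.20 to 0.09 without single replicates. Without single replicates, Nfyc in nascent RNA ranged from -0.20 to 0.02 and its stability change from -0.34 to 0.01, and that of Ctdspl from -0.24 to 0.35. Mir25 in nascent RNA missed the threshold in limma-trend (adjusted p = 0.0624) and without DGCR8KO replicate 3 (0.0636), and Mir16-2 with no filter (0.057) and without DGCR8KO replicate 2 (0.0761) or 3 (0.0726). Requiring 3 CPM in all 12 libraries moved the median gene and lowered relative stability in wild-type cells, to -0.15 for Mcm7, 0.86 for Copz1 and -1.54 for Ctdsp1, without a change of order at the ends. Causes were not tested.

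With the replicate block by number, 6, 9 and 4 hosts passed, as without it, and each of the 19 calls was kept; a block for the 2 libraries of each RNA sample did the same. Low counts limit Ctdspl, Nfyc and all hairpins but those of Mcm7 and Smc4. In total RNA, and so for stability, they limit the hairpins of Mcm7 and Smc4 as well.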
